A study of Mus musculus with 21 samples.

Results

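Adding calcium to the NWD1 diet was examined in Lgr5 cells sorted from the mouse intestine. NWD1 is a purified Western-style diet, and the study asked how diet affects intestinal stem cells. Of the 21 libraries of the series, in 7 groups of 3, 6 were compared: the 3 from mice fed NWD1Ca, which is NWD1 with calcium, and the 3 from mice fed NWD1. All genes of the count table other than the spike-in controls were taken, 37310 in number, and 16050 of them had enough counts to be tested. The NWD1Ca mice received calcium that the labels give as 7 mg/g, written there per g body weight, and the calcium and vitamin D content of NWD1 itself is not stated by the labels. Both groups were Lgr5EGFPcre-ERT2 mice, in which a green fluorescent protein and an inducible Cre recombinase are made from the Lgr5 locus, and all ate their purified diet between weaning and 3 months of age. NWD1Ca 1, 2 and 3 were female, NWD1 1 and 2 were male and NWD1 3 was female. Cells were sorted in bulk as the brightest few percent for Lgr5-EGFP of this 1 reporter line, so each library averages whatever cells that gate held. In such bulk RNA, fewer cells of a type and less RNA per cell cannot be told apart. Vitamin D on the same base diet (NWD1VitD, 2.3 IU/g), AIN76A with low vitamin D (AINlowVitD, 0.11 IU/g) and AIN76A alone (AIN) serve below as further points of reference. NWD2, another diet, and AIN_VdrKO, from mice labelled as lacking Vdr, appear for Trpv6, and all 21 libraries entered the gene fit. NWD1VitD 1 and 3 were male and NWD1VitD 2 female. AIN 1 and 2 and AINlowVitD 1 and 2 were female, and AIN 3 and AINlowVitD 3 male. NWD2 1 and 2 were male and NWD2 3 female, and AIN_VdrKO 1, 2 and 3 were male.

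Calcium is taken up in the intestine by a cellular and a paracellular route. In the cellular route, Trpv6 is the apical entry channel, S100g (calbindin-D9k) carries calcium through the cytosol, and the plasma membrane pump Atp2b1 expels it on the blood side. The hormonal form of vitamin D, made in greater amount when dietary calcium is scarce, binds the receptor Vdr and raises transcription of Trpv6 and S100g. Claudins such as Cldn2 and Cldn12 form paracellular pores that let calcium pass between cells. Lgr5 marks the dividing stem cells at the crypt base, whose descendants become enterocytes or secretory cells.

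The 2 groups differed across the whole library before any gene was considered. Gene counts were 23580204, 26746464 and 36244534 in NWD1Ca 1 to 3, and 53366708, 43834240 and 30400725 in NWD1 1 to 3. The mitochondrial ribosomal RNAs took 4.31% to 4.63% of gene counts in NWD1Ca and 0.312% to 0.965% in NWD1. The 10 most abundant genes of a library took 14.7% to 15.6% in NWD1Ca and 5.44% to 6.97% in NWD1. The ERCC spike-ins, synthetic RNAs that a diet cannot reach, also changed in relative abundance: of 78 tested, 51 (65.4%) passed an adjusted p of 0.05 in edgeR's quasi-likelihood test. Of these, 31 were higher and 20 lower in NWD1Ca, with log2 fold changes between -1.64 and 4.02. Spike-ins made up 3.73%, 6.24% and 5.59% of all counts in NWD1Ca and 24.7%, 20.4% and 5.24% in NWD1. NWD1VitD libraries, sorted from mice on the same base diet, were close to NWD1Ca in these measures: 0 of 78 spike-ins passed between NWD1Ca and NWD1VitD by edgeR, and 0 had an unadjusted p below 0.05. The labels name no batch, so whatever set NWD1Ca apart from NWD1 in preparation and the added calcium cannot be told apart for any gene that follows.

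**Figure D1:**
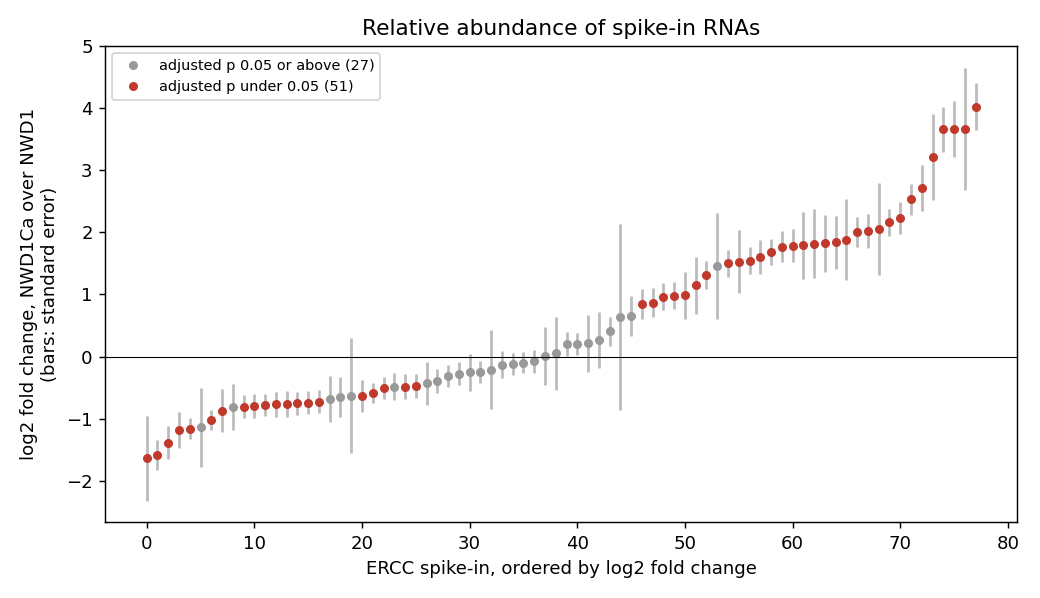
Each point is 1 ERCC spike-in RNA; the vertical axis is its log2 fold change in NWD1Ca over NWD1 with its standard error, and the horizontal axis orders the spike-ins by that value. The 51 red points passed an adjusted p of 0.05, and values ran between -1.64 and 4.02.

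Trpv6 (ENSMUSG00000029868.7) was nearly absent in NWD1Ca and well detected in NWD1. It had 1, 0 and 4 counts in NWD1Ca 1 to 3, against 1071, 796 and 853 counts in NWD1 1 to 3. These are levels of 0.0495, 0 and 0.123 CPM, counts scaled to a common library size, in NWD1Ca and 15.9, 13.9 and 20.6 CPM in NWD1, with no overlap. Over the group, 5 counts in NWD1Ca stood against 2720 in NWD1, a pooled ratio of NWD1 over NWD1Ca of 252 (95% counting interval 108 to 777, scaled for library size). The fitted log2 fold change in NWD1Ca was -7.86 ± 1.2 (SE), with an adjusted p of 0.000321 by edgeR's quasi-likelihood test over 16050 genes. Leaving out any 1 of the 6 libraries gave values between -9.25 and -6.89, each past the threshold. With the male libraries NWD1 1 and 2 left out it was -8.30 (adjusted p = 0.000978, the lone NWD1 library being taken to vary as libraries of other groups do). Mean levels of Trpv6 were 0.0574 ± 0.0616 CPM in NWD1Ca and 16.8 ± 3.40 CPM in NWD1 (SD, n = 3 each).

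Among the other groups, only NWD1VitD had more than a few Trpv6 counts. Trpv6 had 27, 29 and 383 counts in the NWD1VitD libraries, of which NWD1VitD 3 reached 16.8 CPM, inside the range of NWD1, while the other two stood at 1.07 and 1.02 CPM. AINlowVitD libraries had 5, 2 and 1 counts, AIN libraries 2, 2 and 0, NWD2 libraries 1 each and AIN_VdrKO libraries, from mice labelled as lacking Vdr, 0 each. The counts in NWD1Ca thus overlapped those of the AIN76A-fed groups.

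The promoters of Trpv6 and S100g are shown because both genes are textbook targets of the vitamin D receptor in intestine and gave different values here. They run from 250 bases before to 50 bases after the start of transcription in RefSeq, in build GRCm38.p6, which is not the build of the deposited files. Trpv6 is at chr6:41636356-41636655 and S100g at chrX:162964550-162964849, both on the minus strand and written 5′ to 3′ along the gene. Capitals mark AGGTCA and GGTTCA, core hexamers of nuclear hormone receptor elements, on either strand (TGACCT and TGAACC when read on the opposite one).
Trpv6: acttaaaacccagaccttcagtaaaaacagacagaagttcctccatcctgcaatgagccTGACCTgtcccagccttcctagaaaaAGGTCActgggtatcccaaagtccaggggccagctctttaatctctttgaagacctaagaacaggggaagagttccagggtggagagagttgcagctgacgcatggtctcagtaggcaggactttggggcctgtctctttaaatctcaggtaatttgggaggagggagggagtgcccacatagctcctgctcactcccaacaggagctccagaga
S100g: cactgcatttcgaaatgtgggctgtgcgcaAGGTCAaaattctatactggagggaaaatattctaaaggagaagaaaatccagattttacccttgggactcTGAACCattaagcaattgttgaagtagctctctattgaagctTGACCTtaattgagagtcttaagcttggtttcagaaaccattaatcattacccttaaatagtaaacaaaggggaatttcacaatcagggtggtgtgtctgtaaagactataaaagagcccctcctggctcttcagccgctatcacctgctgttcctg
Trpv6 holds AGGTCA once on each strand, at 191 and 165 bases before the start. S100g holds AGGTCA once on each strand, at 220 and 107 bases, and GGTTCA at 149 bases. Of 32851 RefSeq promoters of this length, 16.3% hold AGGTCA on either strand, 10.4% hold GGTTCA and 0.81% hold AGGTCA on both strands. These are matches of letters only, and binding was not measured.

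S100g did not follow Trpv6. Its level was 773, 292 and 1010 CPM in NWD1Ca 1 to 3 and 574, 401 and 235 CPM in NWD1 1 to 3, so the groups overlapped, with NWD1Ca 2 inside the NWD1 range. The log2 fold change was 0.45 ± 0.98 (adjusted p = 0.758). On the TPM scale, with length-corrected scaling and without NWD1 3 the sign turned, to -0.95, -0.94 and -0.25, and none of these passed the test. Atp2b1 was higher in each NWD1Ca library, at 163, 119 and 169 CPM against 75.2, 112 and 111 CPM in NWD1, but its log2 fold change of 0.49 ± 0.27 did not pass (adjusted p = 0.171). On the TPM scale with limma it was -0.80 and passed as lower (adjusted p = 0.0365). The vitamin D-degrading enzyme Cyp24a1 had 0 counts in NWD1Ca 1 to 3 and 0, 0 and 14 counts in NWD1 1 to 3, too few to test. The calcium-sensing receptor Casr had 4, 3 and 8 counts in NWD1Ca and 13, 3 and 31 in NWD1, and its log2 fold change of -0.82 ± 1.02 did not pass (adjusted p = 0.565; it was 1.09 without NWD1 3).

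Vdr and both calcium-permeable claudins were lower in NWD1Ca. Vdr had 264, 273 and 327 CPM in NWD1Ca 1 to 3 and 604, 1270 and 894 CPM in NWD1 1 to 3. No NWD1Ca library reached the lowest NWD1 library, and the log2 fold change was -1.62 ± 0.38 (adjusted p = 0.00449). Cldn2 had 81.9, 87.9 and 113 CPM in NWD1Ca and 393, 506 and 345 CPM in NWD1, a log2 fold change of -2.08 ± 0.38 (adjusted p = 0.000810). Cldn12 had 35.2, 28.8 and 32.1 CPM in NWD1Ca and 39.7, 71.0 and 127 CPM in NWD1, a log2 fold change of -1.34 ± 0.33 (adjusted p = 0.00602). In AINlowVitD against AIN, the values were -1.08 for Vdr, -1.79 for Cldn2 and -1.32 for Cldn12. The difference between the comparisons for Vdr was -0.54 (unadjusted p = 0.295 by edgeR), and -1.19 without AIN 3 (unadjusted p = 0.0287).

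**Figure D2:**
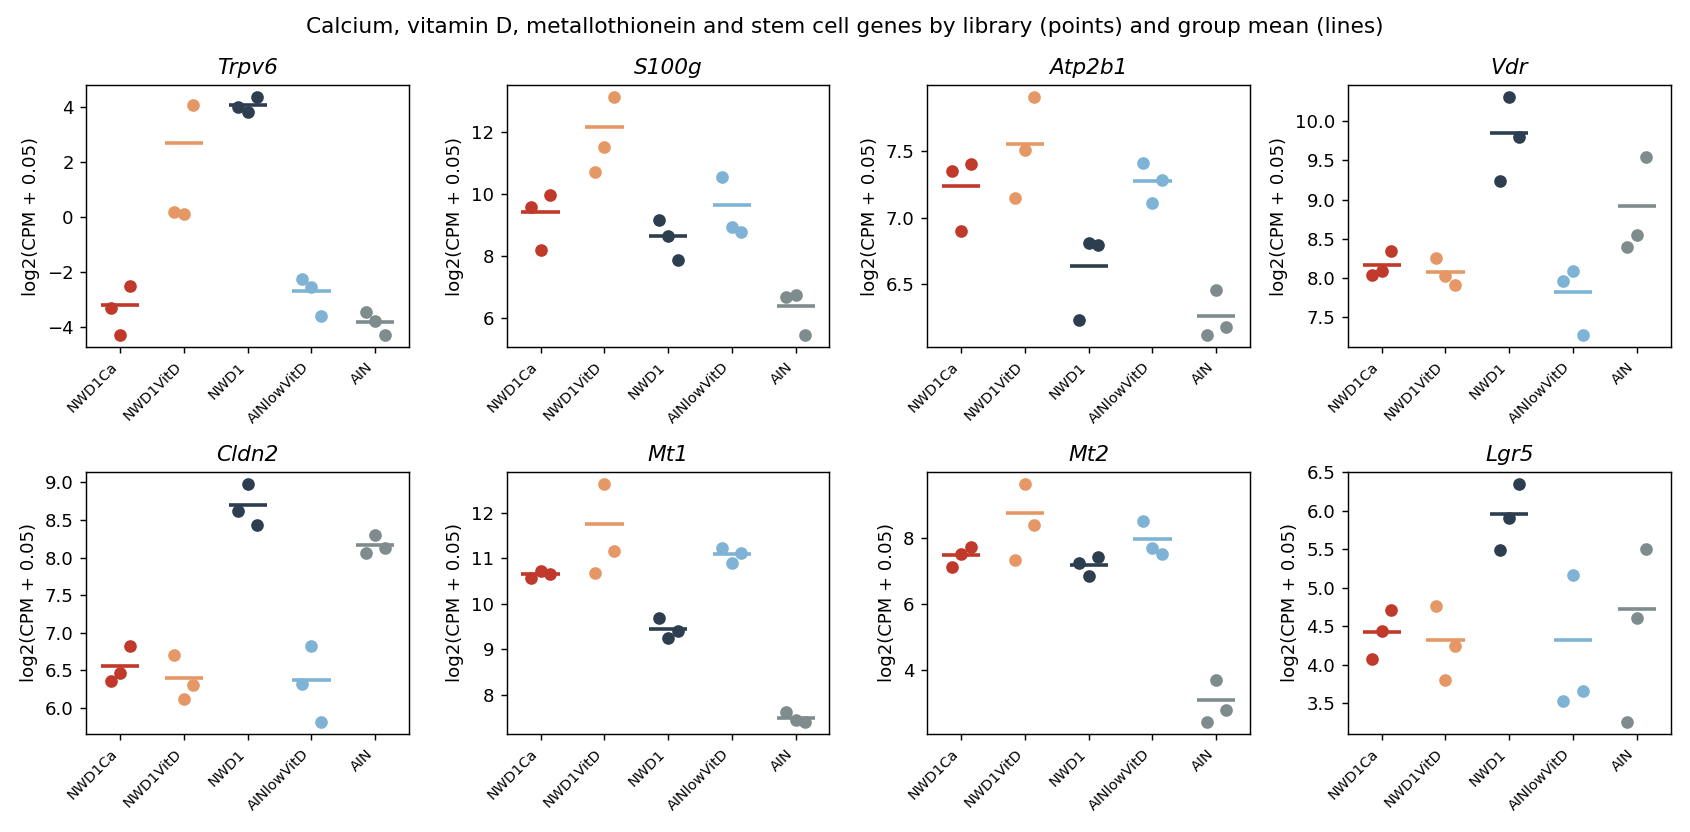
Points are single libraries and lines the group means, on log2(CPM + 0.05), for 8 genes in 5 diet groups. Trpv6 is near its lowest values in NWD1Ca, AINlowVitD and AIN and high in the 3 NWD1 libraries and in 1 NWD1VitD library; Vdr, Cldn2 and Lgr5 are lower in NWD1Ca than in NWD1, while S100g and Mt2 overlap between those 2 groups.

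Of 30 genes on a list of intestinal calcium transport and vitamin D targets, 26 were tested; 4 were higher and 8 lower in NWD1Ca past the threshold, against 15.6% higher and 14.9% lower over all genes tested. The median log2 fold change of the list was -0.31, against -0.04 over all genes. Beside Trpv6, Vdr, Cldn2 and Cldn12, the lower members were the intestinal cadherin Cdh17 (-1.31 ± 0.43), the Vdr co-repressor Hr (-1.70 ± 0.40), the manganese exporter Slc30a10 (-2.96 ± 0.83) and the sulphur amino acid enzyme Cbs (-2.07 ± 0.52). Slc30a10, a vitamin D-responsive gene of the intestine, had 10.8, 2.70 and 11.2 CPM in NWD1Ca and 40.5, 41.9 and 81.3 CPM in NWD1. The higher members were the cyclin-like gene Ccnyl1 (2.00 ± 0.37), the lipid-sensing receptor Ppard (1.56 ± 0.38), the drug efflux pump Abcb1a (1.77 ± 0.53) and the cell-cycle inhibitor Cdkn1a (1.43 ± 0.48). The vitamin D-inducible cytochrome Cyp3a11 ranged widely within NWD1Ca, at 51.4, 7.48 and 75.9 CPM, against 11, 30.5 and 21.7 CPM in NWD1, and did not pass (1.22 ± 1.17, adjusted p = 0.446). Without NWD1 3, 4 members of the list passed as lower and 3 as higher.

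Genes that handle calcium inside the cell were called in both directions at close to the share of all genes. Of 40 tested members of a list of calcium signalling and store calcium, 7 were higher in NWD1Ca (17.5%, against 15.6% of all genes). As many, 7, were lower (17.5%, against 14.9%), and the list median was -0.16. The calcium-binding S100 proteins were among the higher members: S100a6 at 2.73 ± 0.61, S100a10 at 2.16 ± 0.41 and S100a11 at 1.43 ± 0.52 on the log2 scale. S100a6 had 173, 155 and 130 CPM in NWD1Ca, and 36.3, 6.59 and 17.6 CPM in NWD1. The store-operated channel gene Orai1 rose (1.77 ± 0.45, adjusted p = 0.00704), while its relatives Orai2 (-0.85 ± 0.32) and Orai3 (-1.31 ± 0.36) fell. The store calcium sensors also parted, Stim2 rising (0.92 ± 0.30) and Stim1 falling (-0.93 ± 0.34). The endoplasmic reticulum pump Atp2a3 fell, at 159, 179 and 195 CPM in NWD1Ca and 285, 409 and 1366 CPM in NWD1, and the tuft cell cation channel Trpm5 fell by 2.06 ± 0.63. Without NWD1 3 the counts were 3 higher and 1 lower.

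Metallothioneins, small proteins that bind zinc and copper, did not pass the test in NWD1Ca against NWD1. Mt1 had 1506, 1682 and 1615 CPM in NWD1Ca and 820, 612 and 672 CPM in NWD1, all higher, yet the fitted value was 0.86 ± 0.51 (adjusted p = 0.204). It was -0.41 on the TPM scale and -0.15 with length-corrected scaling, and in a fit of only the groups compared it was 1.24 (adjusted p = 0.0215). Mt2 had 140, 183 and 210 CPM in NWD1Ca and 151, 114 and 170 CPM in NWD1, and overlapped. Mt1 and Mt2 are near copies of each other, so reads may be shared between them. Among zinc transporters, the exporter Slc30a1, which zinc induces, rose to 32.2, 17.0 and 21.6 CPM in NWD1Ca, against 4.92, 3.22 and 3.26 CPM in NWD1. The importer Slc39a1 rose likewise (2.64 ± 0.42, adjusted p = 0.000309) and Slc30a9 by 1.42 ± 0.35. The vesicular exporter Slc30a2 fell, at 12.2, 12.5 and 11.8 CPM in NWD1Ca and 47.7, 58.5 and 70.5 CPM in NWD1. Importers Slc39a6, Slc39a7, Slc39a8 and Slc39a11 fell by 1.33, 2.15, 1.34 and 1.33. In all, 3 of 26 tested members were higher (11.5%, against 15.6% of all genes) and 8 lower (30.8%, against 14.9%), with a median of -0.60. Without NWD1 3, 2 were higher and 3 lower.

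Over the whole transcriptome, 2507 of 16050 genes (15.6%) were higher and 2396 (14.9%) lower in NWD1Ca, so 30.5% of genes passed. On log2(TPM + 1) with limma, the same threshold gave 827 higher and 8265 lower, a scale that moves the median of all genes to -0.78; the split into higher and lower genes thus depends on the scaling. Values of the 2 groups did not overlap for 8119 genes (50.6%). The first principal component of the 6 libraries held 55.4% of the variance and placed NWD1Ca at -85.2, -83.2 and -76.7, and NWD1 at 50.4, 138.0 and 56.7. Without NWD1 3, the 1 female of its group, 1463 genes were higher and 1061 lower. Fold changes moved with gene length: over the tested genes Spearman's rho with relative length was -0.23, and the shortest 25% of genes had a median of 0.71 on the log2 scale, against -0.17, -0.32 and -0.16 in the other 3 equal parts.

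The largest rises among well-expressed genes were of several kinds. Leap2, which encodes a liver- and intestine-made antagonist of the ghrelin receptor, had 645, 82.7 and 211 CPM in NWD1Ca and 7.84, 3.15 and 2.70 CPM in NWD1 (6.10 ± 1.23, adjusted p = 0.00164). The lipoprotein gene Apoc2 had 2705, 528 and 2299 CPM in NWD1Ca and 43.3, 37.9 and 24.4 CPM in NWD1 (5.42 ± 1.15). Fabp1, the fatty acid-binding protein of enterocytes, had 22770, 12960 and 17780 CPM in NWD1Ca and 380, 527 and 472 CPM in NWD1 (4.95 ± 0.68, adjusted p = 0.000120). NWD1Ca 2 was the lowest of its group for all 3 of these enterocyte-expressed genes, as it was for S100g. The cytochrome oxidase subunit gene Cox7a1 (5.41 ± 0.67), Tmem160 (5.39 ± 0.85), the transcriptional cofactor Zfpm1 (5.01 ± 0.65), the histone gene Hist1h2ae (4.96 ± 0.71) and the mitochondrial leucyl-tRNA synthetase Lars2 (4.92 ± 0.99) followed. Snord13, Smap1, Arl5c and the TFIID subunit gene Taf10 rose by 4.85, 4.70, 4.63 and 4.50. Every NWD1Ca library exceeded every NWD1 library for these 12 genes, as the rule that picked them requires.

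The largest falls among well-expressed genes were led by Pla2g5, a secreted phospholipase, which had 1.49, 2.2 and 2.33 CPM in NWD1Ca and 29.0, 23.3 and 28.6 CPM in NWD1 (-3.77 ± 0.60, adjusted p = 0.000320). The microtubule-binding gene Eml2 had 1.39, 2.16 and 1.53 CPM in NWD1Ca and 18.3, 17.9 and 20.1 CPM in NWD1 (-3.72 ± 0.36). The chloride channel family member Clic1 had 23.5, 21 and 26.7 CPM in NWD1Ca and 346, 250 and 201 CPM in NWD1 (-3.40 ± 0.30, adjusted p = 2.72e-06). The acetaldehyde dehydrogenase Aldh2 (-3.29 ± 0.38), Ilvbl (-3.41 ± 0.33), the interferon-induced antiviral gene Bst2 (-3.32 ± 0.62) and Tmem39b (-3.32 ± 0.26) fell alike. Tmed9, a cargo receptor of the secretory pathway, Rnf25, the proton pump accessory gene Atp6ap1, the ESCRT gene Chmp7 and the actin-nucleating Arpc3 had log2 fold changes of -3.25, -3.18, -3.13, -3.11 and -3.06. Trpv6 fell further than any of these but was below the expression floor used to choose them.

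**Figure D3:**
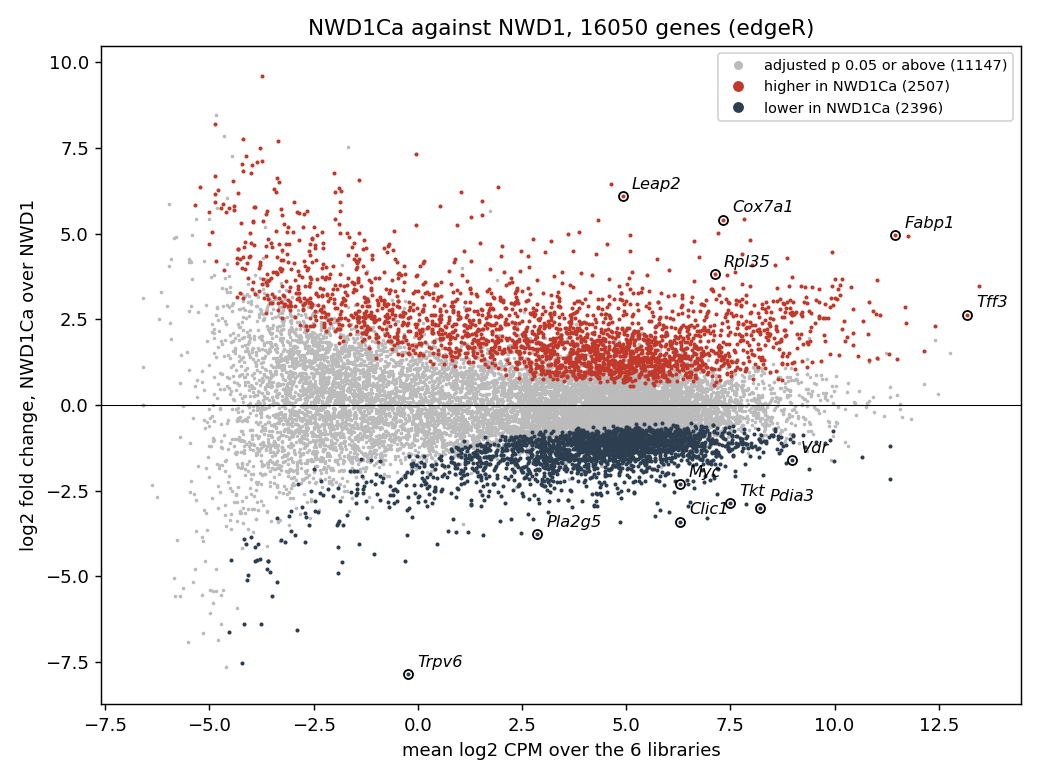
Each point is 1 of 16050 genes, with the mean log2 CPM of the 6 libraries on the horizontal axis and the fitted log2 fold change in NWD1Ca over NWD1 on the vertical axis. Red points (2507) were higher and dark points (2396) lower in NWD1Ca at an adjusted p under 0.05; Trpv6 at -7.86 lies apart from genes of like abundance.

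Of the markers of the sorted cell, some were lower in NWD1Ca and most did not pass. Lgr5 itself had 16.8, 21.5 and 26.1 CPM in NWD1Ca and 44.8, 59.9 and 81.7 CPM in NWD1, without overlap, and did not pass the threshold (-1.35 ± 0.52, adjusted p = 0.0546). It was -0.66 without NWD1 3 (adjusted p = 0.5), and passed with DESeq2 (adjusted p = 0.0478), without the sex term (0.0198), with length-corrected scaling (0.0383) and on the TPM scale with limma (0.00274). The crypt base marker Olfm4 had 824, 1080 and 1320 CPM in NWD1Ca and 5980, 8040 and 5500 CPM in NWD1 (-2.16 ± 0.56, adjusted p = 0.00759). Tnfrsf19, a receptor of stem cells and a Wnt target, had 4.36, 3.74 and 5.57 CPM in NWD1Ca and 29.9, 38.5 and 36.1 CPM in NWD1 (-2.48 ± 0.50). Of 28 tested stem cell genes, 8 were lower (28.6%, against 14.9% of all genes) and 0 higher, with a median of -0.50. The other members that fell were Rnf43, a Wnt receptor ubiquitin ligase, Soat1, Clca4, Prom1, Cdca7 and Aqp4. Ascl2, the transcription factor that maintains these stem cells, did not pass: it had 36.9, 40.8 and 41.1 CPM in NWD1Ca and 94.1, 62.6 and 31.5 CPM in NWD1. Summed over the list, stem cell markers reached 2520, 2940 and 3410 CPM in NWD1Ca and 10000, 12800 and 9340 CPM in NWD1. Olfm4 made up most of each NWD1 sum, followed by Clca4, at 228, 413 and 355 CPM in NWD1Ca and 1190, 1610 and 1340 CPM in NWD1. Without NWD1 3, 2 members passed as lower.

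Wnt targets overlapped in part with these genes. Of 27 tested, 5 were lower (18.5%, against 14.9% of all genes) and 1, Lgr4, higher (3.7%, against 15.6%), with a median of -0.30. Myc, the proliferation-driving transcription factor, had 30.6, 34.9 and 32.8 CPM in NWD1Ca and 173, 244 and 155 CPM in NWD1 (-2.31 ± 0.42, adjusted p = 0.000813), and Ctnnb1, the Wnt signal transducer beta-catenin, fell by 1.08 ± 0.35. Rnf43 fell by 1.52 ± 0.36, while Axin2 (0.19 ± 0.44) and Ccnd1 (0.20 ± 0.36) did not pass. In the BMP pathway, which restrains stem cells and promotes differentiation, 5 of 18 tested genes were higher and 0 lower. The 5 were 27.8% of the list, against 15.6% of all genes. Smad6 (2.80 ± 0.54), Smad7, Smad4 and the receptor Bmpr1a (0.88 ± 0.23) were among them, and the activity of the pathway was not measured. AINlowVitD against AIN likewise had 5 higher and 0 lower, with a median of 0.66. In NWD1Ca against NWD1, Bmpr1a turned to -0.41 on the TPM scale, where the list median of 0.54 became -0.50. Notch ligands parted, Jag1 rising (1.84 ± 0.40) and Dll1 (-1.92 ± 0.37) and Dll4 (-1.83 ± 0.39) falling. Of 22 Notch genes, 4 were up and 4 down (18.2% each, against 15.6% and 14.9% of all genes). Of 17 EGF receptor genes, 3 were higher and 3 lower (17.6% each), also near the share of all genes. The ligand Hbegf rose (2.85 ± 0.44) and the downstream factors Etv4 (-2.76 ± 0.66) and Etv5 (-1.71 ± 0.46) fell. Without NWD1 3, 2 Wnt targets were lower, 1 BMP gene was higher, 1 Notch gene was higher and 2 lower, and 1 EGF receptor gene was higher and 1 lower.

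Some markers of differentiated cells differed between the groups. Enterocyte markers summed to 50400, 26400 and 37400 CPM in NWD1Ca and 4850, 6290 and 10900 CPM in NWD1. Of 34 tested, 10 were higher (29.4%, against 15.6% of all genes) and 0 lower, with a median log2 fold change of 1.24. On the TPM scale the median was -0.19, still above the -0.78 of all genes. Fabp2 had 4320, 2173 and 3180 CPM in NWD1Ca and 500, 336 and 285 CPM in NWD1, and the vitamin A-binding protein gene Rbp2 and fructose-phosphorylating Khk rose as well. Goblet cell markers summed to 63300, 62100 and 56500 CPM in NWD1Ca and 29800, 11500 and 23300 CPM in NWD1. Most of this came from few genes: the trefoil peptide Tff3 had 26270, 27150 and 22800 CPM in NWD1Ca and 6514, 2428 and 2510 CPM in NWD1, and Spink4 rose too, while the secretory regulators Atoh1 (-1.47 ± 0.29) and Foxa3 (-1.61 ± 0.29) fell. Of 19 goblet genes, 2 were higher (10.5%, against 15.6% of all genes) and 3 lower (15.8%, against 14.9%), with a median of -0.36. Without NWD1 3 the goblet counts were 0 and 2. Without NWD1 1 and 2, 4 enterocyte genes were higher and 1 lower.

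Several hormones of enteroendocrine cells rose. Sst (somatostatin) had 901, 979 and 741 CPM in NWD1Ca and 45.8, 34.9 and 107 CPM in NWD1 (3.54 ± 0.47, adjusted p = 8.58e-05). Gip, the incretin of the upper intestine, had 2212, 3458 and 4831 CPM in NWD1Ca and 225, 57.0 and 523 CPM in NWD1, and Ghrl (ghrelin) had 781, 1045 and 694 CPM in NWD1Ca and 50.5, 22.7 and 83.5 CPM in NWD1. With Cck (2.92 ± 0.59), 11 of 28 tested genes of the list were higher (39.3%, against 15.6% of all genes) and 1 lower. The list median was 0.86 (-0.27 on the TPM scale). The counts were 7 higher and 1 lower without NWD1Ca 2, 5 and 3 with only the groups compared in the fit, and 7 and 3 without NWD1 1 and 2. Of 20 tuft cell genes, 4 were lower (20%, against 14.9% of all genes) and 0 higher. The master regulator Pou2f3 had 17.2, 16.5 and 23.1 CPM in NWD1Ca and 40.0, 69.6 and 115 CPM in NWD1, and Trpm5, Gfi1b and Avil were the other 3. Of 20 Paneth cell genes, the defensin Defa17 passed as higher and Habp2 as lower (5% each, below the shares of all genes). The list median of 1.18 became -0.18 on the TPM scale, and single defensins share reads with near copies. Without NWD1 3, 0 tuft members passed, and without NWD1Ca 2, 1 did. Whether the sort took in different shares of these cell types was not tested.

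Cells that a sort may carry over gave small sums. Leukocyte markers summed to 48.9, 34.0 and 51.3 CPM in NWD1Ca and 110, 177 and 158 CPM in NWD1, and 1 of 18 tested genes, Cd3g with 10, 1 and 2 counts in NWD1Ca and 0 in each NWD1 library, passed as higher. Macrophage markers summed to at most 12.2 CPM in NWD1Ca and 28.4 CPM in NWD1, with Cx3cr1 at 0 in all 6 libraries, and Cd14 fell by 1.51 ± 0.38. Endothelial markers summed to at most 15.8 CPM in NWD1Ca and 46.7 CPM in NWD1, with Cdh5 at 0, and Esam fell. Fibroblast markers summed to at most 27.1 CPM in NWD1Ca and 23.3 CPM in NWD1, with Lum at 0, and 0 of 4 tested passed. The neuronal and glial list had Sox10 at 0, and S100b rose at 21, 10 and 28 counts in NWD1Ca and 3, 1 and 1 in NWD1.

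Genes of the respiratory chain and of the ribosome rose together. Over all genes tested, 15.6% were higher and 14.9% lower. Of 37 complex I subunit genes, 27 were higher (73%) and 0 lower, with a median log2 fold change of 2.30. Of 40 genes of complexes II to V, 25 were higher (62.5%) and 1 lower (2.5%), with a median of 2.38. Ndufb4 had 185, 161 and 167 CPM in NWD1Ca and 21.3, 11.7 and 7.11 CPM in NWD1 (3.79 ± 0.50), and the ATP synthase gene Atp5k had 2312, 2797 and 1766 CPM in NWD1Ca and 182, 90.3 and 55.0 CPM in NWD1. Cox6c, Atp5l and the electron carrier Cycs followed. Of 80 cytosolic ribosomal protein genes, 60 were higher (75%) and 0 lower, with a median of 2.03. Rpl35 had 472, 684 and 530 CPM in NWD1Ca and 68.6, 42.8 and 14.6 CPM in NWD1. Mitochondrial ribosomal protein genes moved less, with 29 of 75 higher (38.7%) and 4 lower (5.33%) and a median of 0.81. On the TPM scale the medians were 1.08 for complex I, 1.12 for complexes II to V and 0.83 for cytosolic ribosomal proteins, each above 0, and -0.45 for mitochondrial ribosomal proteins. With length-corrected scaling they were 1.49, 1.32, 1.65 and 0.46. Without NWD1 3, the counts of higher genes were 21, 22, 27 and 11 in the same order.

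Transcripts made in the mitochondrion gave 6 higher (46.2%, against 15.6% of all genes) and 0 lower of 13 tested, and 3 higher without NWD1 3. The ribosomal RNA mt-Rnr2 had 44390, 39480 and 37870 CPM in NWD1Ca and 5541, 3234 and 1691 CPM in NWD1, and mt-Nd3 had 184, 72.0 and 105 CPM in NWD1Ca and 19.4, 8.34 and 6.68 CPM in NWD1. The ribosomal RNA mt-Rnr1 (2.87 ± 0.67) and the complex I transcripts mt-Nd2 (1.3 ± 0.47), mt-Nd4 (1.36 ± 0.46) and mt-Nd6 (1.66 ± 0.52) passed as higher too, without overlap. Others did not pass: mt-Co1 had 3560, 2380 and 2810 CPM in NWD1Ca and 3840, 3800 and 2360 CPM in NWD1, and mt-Cytb, mt-Nd1 and mt-Nd5 were at 0.31, 0.62 and 0.06. The list median was 1.3, and -0.62 on the TPM scale. Of 22 regulators of mitochondrial mass, 2 were higher and 6 lower (27.3%, against 14.9% of all genes), and 0 and 1 without NWD1 3: Nrf1 fell by 1.09 ± 0.26, Gabpb1 by 1.16 ± 0.31 and the nuclear receptor Esrrg by 2.41 ± 0.38. The co-activator Ppargc1a had 72.4, 39.8 and 43.7 CPM in NWD1Ca and 6.92, 30.4 and 31.9 CPM in NWD1, and did not pass (0.89 ± 0.57, adjusted p = 0.239).

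Cell cycle genes were lower in NWD1Ca wherever they passed. Of 44 S phase genes, 15 were lower (34.1%, against 14.9% of all genes) and 0 higher (against 15.6%), with a median of -0.66. Of 50 G2 and M phase genes, 19 were lower (38%) and 0 higher, with a median of -0.59. The replicative helicase gene Mcm2 had 26.0, 35.8 and 27.7 CPM in NWD1Ca and 104, 178 and 138 CPM in NWD1 (-1.98 ± 0.41), and Mcm4, Mcm5 and the polymerase gene Pold1 fell with it. The mitotic kinase Plk1 had 40.5, 58.1 and 61.3 CPM in NWD1Ca and 149, 169 and 105 CPM in NWD1, and Aurkb, Kif20a and Cdc25b fell as well. DNA repair genes gave 19 lower (33.9%, against 14.9% of all genes) and 1 higher (1.79%, against 15.6%) of 56. Xrcc1 and Xrcc3 fell, while the nucleotide excision repair gene Xpa rose (3.32 ± 0.47). Without NWD1 3, or without NWD1Ca 1, 12 repair genes were lower. Leaving out any 1 library gave 5 to 16 lower S phase genes and 9 to 21 lower G2 and M phase genes.

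Lists of intermediary metabolism had calls in both directions. Cholesterol and fatty acid synthesis had 8 of 28 genes lower (28.6%, against 14.9% of all genes) and 0 higher, with a median of -0.73: the transcription factor Srebf2 fell by 1.21 ± 0.26, with Acly and Fdft1. Glycolysis and its pentose phosphate branch had 6 of 24 lower (25%, against 14.9% of all genes) and 1 higher (4.17%, against 15.6%). The branch enzyme Tkt had 59.7, 72.0 and 64.0 CPM in NWD1Ca and 518, 586 and 416 CPM in NWD1. The log2 fold change of Tkt was -2.86 ± 0.26 (adjusted p = 2.72e-06), and G6pdx and Pgd fell too. The pyruvate dehydrogenase subunit Pdha1 and the carboxylase Pcx fell in a list of which 4 of 28 were lower (14.3%, against 14.9% of all genes) and 1 higher. Fat absorption had 7 of 22 higher (31.8%, against 15.6% of all genes) and 1 lower, with a median of 0.73 (-0.60 on the TPM scale); Apoc3 had 757, 243 and 626 CPM in NWD1Ca and 26.6, 20.04 and 24.1 CPM in NWD1. Without NWD1 3, 2 cholesterol, 1 glycolytic and 1 pyruvate entry gene were lower, and without NWD1Ca 3, 3 cholesterol genes were.

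Stress and defence genes were mixed. Of 28 glutathione and NRF2 genes, 11 were higher (39.3%, against 15.6% of all genes) and 2 lower. Txn1 (thioredoxin), Sod1, Gclm and Gsta1 rose, and the haem-degrading Hmox1 fell, with 1, 0 and 5 counts in NWD1Ca and 173, 56 and 82 in NWD1. The list median was 0.65, and -0.34 on the TPM scale. Immediate early genes, which also respond to tissue dissociation, had 9 of 28 higher (32.1%, against 15.6% of all genes) and 0 lower (against 14.9%). They had 5 and 0 without NWD1Ca 2, and 4 and 3 with only the groups compared in the fit. Jund had 57.4, 97.3 and 39.8 CPM in NWD1Ca and 7.77, 2.93 and 2.29 CPM in NWD1, and Klf2 and Dusp2 rose with it; the list median of 1.04 was -0.17 on the TPM scale. In the unfolded protein response, Pdia3 had 94.7, 128 and 99.3 CPM in NWD1Ca and 660, 838 and 1058 CPM in NWD1 (-3.00 ± 0.35), with Pdia4 and Herpud1 lower and Sec61b higher. Of 30 genes on this list, 4 were higher (13.3%, against 15.6% of all genes) and 7 lower (23.3%, against 14.9%), and 3 and 1 without NWD1 3. Of 18 antimicrobial genes, 4 rose (22.2%, against 15.6% of all genes), Reg1, Reg3a and Il18 among them, and 2 fell (11.1%, against 14.9%). Of 24 MHC class I genes, 6 fell (25%, against 14.9% of all genes), Tap2, Tapbpl and H2-Q6 among them. In that list 1 rose (4.17%, against 15.6%). With only the groups compared in the fit, 3 antimicrobial genes were higher and 6 lower, and 4 MHC class I genes were higher and 6 lower. Without NWD1 3, 2 antimicrobial genes were higher and 3 MHC class I genes lower, and without NWD1Ca 2 or NWD1Ca 3, 2 MHC class I genes were lower. Apoptosis and p53 target genes had 6 of 28 lower (21.4%, against 14.9% of all genes) and 3 higher (10.7%, against 15.6%). Without NWD1 3, 2 of them were lower and 3 higher. The p53 gene Trp53 and the pro-apoptotic Bax fell, whereas Bak1 and the survival gene Mcl1 rose.

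**Figure D4:**
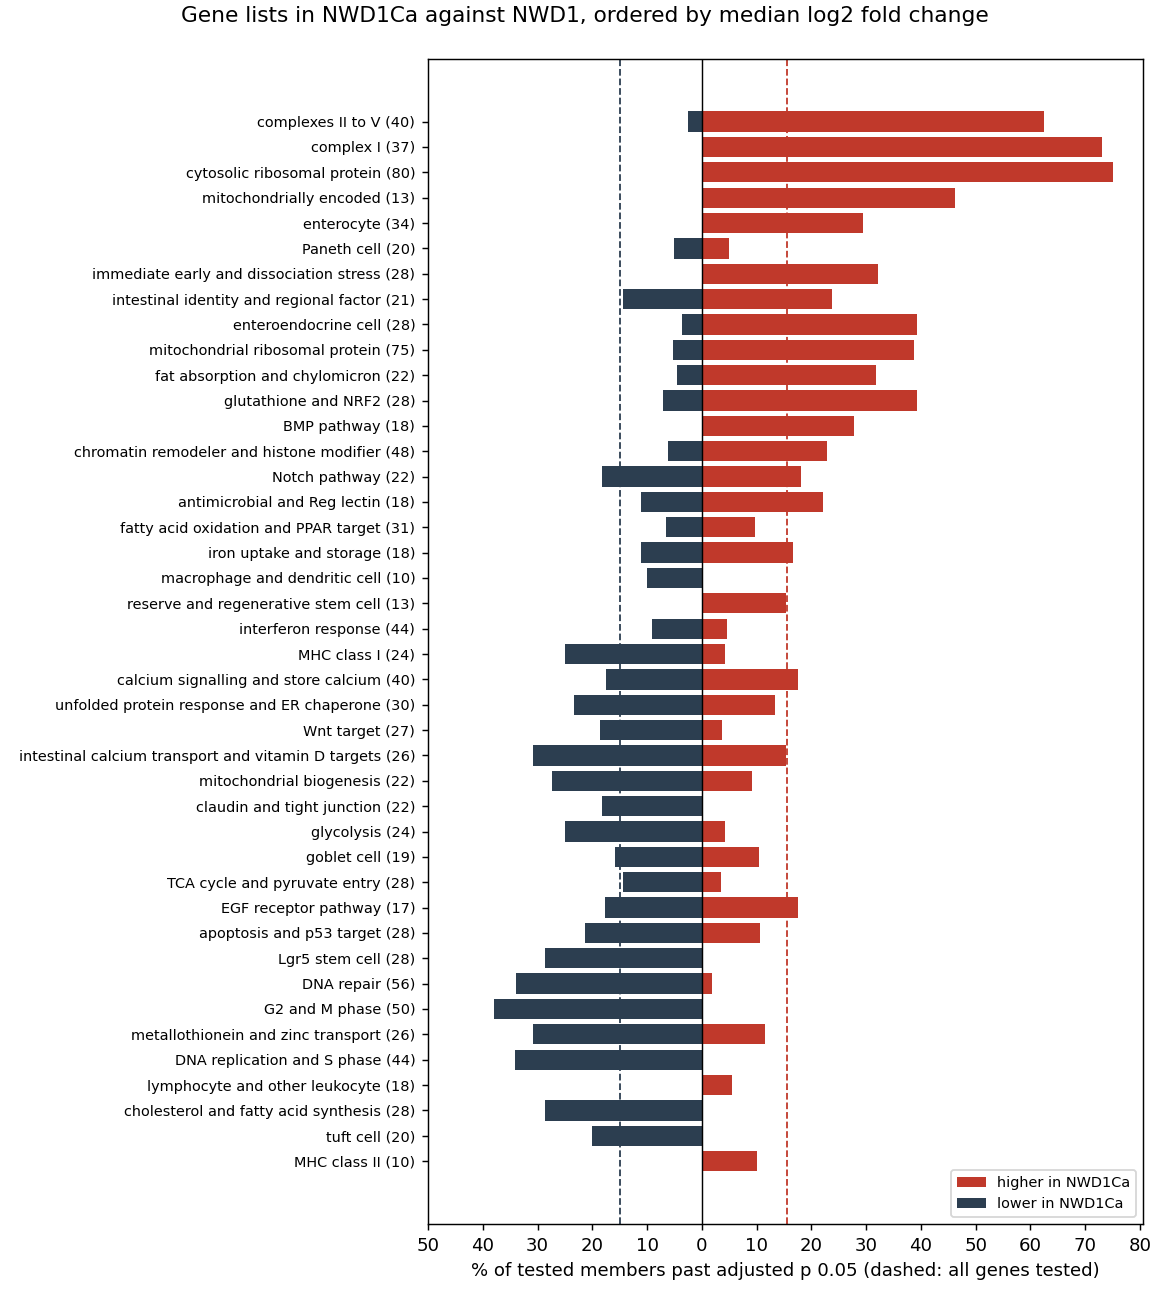
Bars give the percentage of each gene list's tested members (number in brackets) that were higher (red, to the right) or lower (dark, to the left) in NWD1Ca at an adjusted p under 0.05, ordered by the list's median log2 fold change. Dashed lines mark 15.6% higher and 14.9% lower over all 16050 genes; respiratory chain and cytosolic ribosomal protein lists lie farthest to the right and cell cycle lists farthest to the left.

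NWD1Ca and NWD1VitD differ in the supplement given, on 1 base diet and in libraries with like spike-ins. They also differ in sex, NWD1Ca being all female and NWD1VitD 1 and 3 male, and the fit holds a term for sex. By edgeR 0 of 16050 genes passed (0%), and 372 had an unadjusted p below 0.05; DESeq2 called 3 and limma on TPM 0. Trpv6 had the smallest p of all genes: its levels were 0.0495, 0 and 0.123 CPM in NWD1Ca and 1.07, 1.02 and 16.8 CPM in NWD1VitD, all lower in NWD1Ca. Its log2 fold change was -6.36 ± 1.31 (unadjusted p = 0.000146, adjusted p = 1 by edgeR and 0.00879 by DESeq2). NWD1VitD 3 carried much of its size, and without it the value was -4.30. S100g had 773, 292 and 1010 CPM in NWD1Ca and 1677, 2961 and 9052 CPM in NWD1VitD, lower in every NWD1Ca library, and did not pass (-3.04, adjusted p = 1). With females only, where NWD1VitD 2 stood alone for its group, Trpv6 was at -3.93 and S100g at -2.09. In the fit of all libraries, Vdr (0.16), Cldn2 (0.22) and Lgr5 (0.36) lay near 0 in this comparison. Atp6ap1 (-0.03), Tkt (0.18) and Myc (0.59), which were lower than in NWD1, did not pass here either.

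AINlowVitD against AIN shares no library with NWD1Ca against NWD1 and adds no calcium, and it changed many of the same genes. It called 5030 genes (31.3%). Of the 2507 genes higher in NWD1Ca, 1848 (73.7%) were higher in AINlowVitD, which is 76.5% of the genes higher there; of the 2396 lower genes, 1731 (72.2%) were lower, which is 66.2% of those lower there. No called gene of either comparison was called in the opposite direction in the other. Over 16050 genes the log2 fold changes correlated at 0.75 (Pearson) and 0.79 (Spearman), a description across genes, which share libraries within each comparison. The spike-ins changed there too, 44 of 78 (56.4%), in a fit without AIN 2, which held 12 spike-in counts. The leading falls were of like size in both: Clic1 at -3.40 in NWD1Ca against NWD1 and -3.52 in AINlowVitD against AIN, Tkt at -2.86 and -2.88, and Atp6ap1 at -3.13 and -3.01. Ribosomal protein genes had medians of 2.03 and 1.81, and complex I genes 2.30 and 1.71.

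Lists of stem cell and enterocyte genes had medians of opposite sign in the 2 comparisons: stem cell genes -0.50 in NWD1Ca against NWD1 and 0.32 in AINlowVitD against AIN, and enterocyte genes 1.24 and -0.28. On the TPM scale the enterocyte median in NWD1Ca against NWD1 was -0.19. In AINlowVitD against AIN, 2 stem cell genes were higher and 1 lower, and 1 enterocyte gene was higher and 0 lower. The test of the difference between the comparisons called 0 genes of either list. Fabp1 nonetheless was higher in both comparisons, at 4.95 and 3.32. Tnfrsf19 was at -2.48 in NWD1Ca against NWD1 and -0.38 in AINlowVitD against AIN, a difference of -2.11 (unadjusted p = 0.00497, adjusted p = 1). Without AINlowVitD 2 the difference was -1.20 (unadjusted p = 0.0643).

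The difference between these fold changes was tested in 1 model, and 0 of 16050 genes passed (0%) by edgeR, and 494 had an unadjusted p below 0.05; DESeq2 called 12 and limma on TPM 2. The genes with the smallest p were named after their values were seen. Pla2g5 led, with a difference of -4.33 ± 0.77 (unadjusted p = 2.04e-05, adjusted p = 0.327). It had 2.72, 9.32 and 2.04 CPM in AINlowVitD and 2.25, 3.48 and 3.60 CPM in AIN, so only NWD1 among these groups stood high. Trpv6 came next, at -10.01 ± 2.00 (unadjusted p = 0.000104, adjusted p = 0.834), and Mt2 was the fourth, at -5.17 ± 1.16 (unadjusted p = 0.000271, adjusted p = 0.923). With only the 4 groups of this difference in the fit, Trpv6 and Mt2 passed (both adjusted p = 0.00565), and by DESeq2 Trpv6 (0.00184), Mt2 (0.0464) and Pla2g5 (8.41e-05) did. Mt2 had 361, 204 and 183 CPM in AINlowVitD and 5.38, 13.1 and 6.95 CPM in AIN, a rise that NWD1Ca against NWD1 lacked. In NWD1 itself, Mt2 stood at 151, 114 and 170 CPM, above AIN. Mt1 was higher in each NWD1Ca library than in each NWD1 library, but by less than in the other comparison. Its values were 0.86 in NWD1Ca against NWD1 and 3.61 in AINlowVitD against AIN, a difference of -2.75 (unadjusted p = 0.000752). S100g differed by -2.83 (unadjusted p = 0.0407), being higher in AINlowVitD than in AIN by 3.28.

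**Figure D5:**
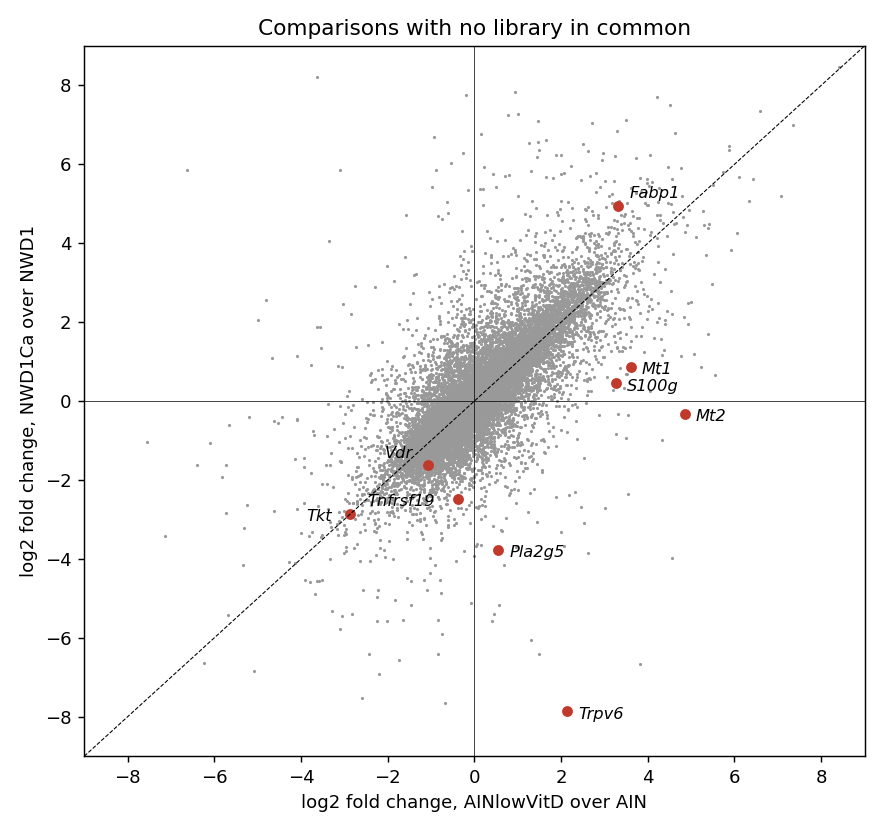
Each point is 1 gene, with its log2 fold change in AINlowVitD over AIN on the horizontal axis and in NWD1Ca over NWD1 on the vertical axis; the dashed line marks equal values and 4 genes lie outside the axes. Most genes follow the line (Pearson 0.75), while Trpv6, Pla2g5, Mt1, Mt2 and S100g lie below it.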

How the data were processed

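RNA of sorted Lgr5-EGFP cells was sequenced after SMART-Seq v4 cDNA synthesis and Nextera XT paired-end library preparation, per the labels' protocols; this kit does not mark strand, so overlapping antisense genes cannot be told apart. The authors deposited whole-number read counts per gene and ERCC spike-in, not normalized, and TPM values of the same genes, which correct for gene length and library total. The submitters' processing notes name the aligner STAR 2.4.2a, the counter HTSeq 0.6.1, edgeR and the build mm9; settings and annotation are not stated in the sources. Every column was mapped to a sample, and 0 were left out. Of the 6 libraries compared, gene counts ranged between 23580204 and 53366708. PCR copies carry no molecular identifiers, so counting intervals cover counting error only.

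Counts were tested here in edgeR 4.0.16 (R 4.3.3) by its two-sided quasi-likelihood F test, with TMM scaling and the filterByExpr filter. The fit took all 21 libraries together, giving each group its own mean and adding sex as a term, and p-values were adjusted by Benjamini-Hochberg over 16050 genes at a threshold of 0.05. Every adjusted p is from this test unless another tool is named. The standard error (SE) is the log2 fold change divided by the square root of its F statistic, CPM uses TMM-scaled library sizes, and SDs are over 3 libraries. Spike-ins were tested alone, in libraries with over 1000 spike-in counts. Alternatives used DESeq2 1.42.0 and limma 3.58.1 (log2(TPM + 1), a scale that understates changes of low genes). The gene test was checked on counts simulated with a common spread and no preparation difference, so that check does not bear on preparation. Replicates differed by more than counting noise (chi-square per degree of freedom of 51.68 or more); separate libraries of the same RNA can do so too. The labels list each as a separate sample, and whether mice were pooled is not stated, so p-values measure the spread between these samples.

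The comparisons, the 46 gene lists and the named genes were chosen with earlier results of these data known. The rule for named genes took the 12 largest rises and falls whose log2 CPM averaged 2 or more and whose groups did not overlap, leaving out predicted, clone-named, Y-linked and X-inactivation genes. It added the 4 or fewer called members of every list ranked first by p, and Trpv6, S100g, Atp2b1, Vdr, Cyp24a1, Casr, Cldn2, Mt1, Mt2, Lgr5 and Ppargc1a. Against NWD1VitD, and for the difference from AINlowVitD against AIN, the rule gave no gene. Further members of the calcium, zinc, mitochondrial, stem cell and Wnt lists, and genes ranked by p in the difference, were named after their values were seen. Single members of the Defa, Reg, Mt, H2, Gsta, histone and ribosomal protein families share sequence with near copies and are uncertain. Promoter sequences were taken from RefSeq (GRCm38.p6); both genes printed had an entry.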

Additional observations from a re-analysis of the deposited data

How the results depend on the processing

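The counts of genes higher and lower in NWD1Ca against NWD1 (2507 and 2396) were 827 and 8265 with limma on log2(TPM + 1). With females only in 5 groups, an alternative chosen after seeing the data, 3661 were lower. Leaving out 1 library gave 1463 to 2925 higher and 1061 to 2883 lower, the fewest without NWD1 3, and 43 to 55 changed spike-ins. Without NWD1Ca 3, 1528 were lower. NWD1Ca against NWD1VitD gave 117 genes without the count filter, 3 with DESeq2, and 0 with any 1 library left out. The difference from AINlowVitD against AIN gave 117 without the filter, 12 with DESeq2, 2 with limma on TPM, 2 with only the groups compared, and 0 to 12 with 1 library left out, the 12 without NWD1 3. The cause of these shifts was not tested.

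Signs turned for Atp2b1 (-0.80), Bmi1 (-0.35), Bmpr1a (-0.41), Ctss (-0.33), Mt1 (-0.41), Pcbp1 (-0.02), Ppargc1a (-0.31) and S100g (-0.95) on the TPM scale, for Mt1 (-0.15) and S100g (-0.94) with length-corrected scaling, and for Casr (1.09) and S100g (-0.25) without NWD1 3. With 1 library left out in turn, Casr lay between -1.24 and 1.09 and S100g between -0.25 and 0.81. Mt2 turned to 0.05 with only the groups compared, 0.29 without the sex term, 0.05 without NWD1 1 and 2, and 0.06 with females only. Of 177 named genes, 48 lost their call without NWD1 3. On the TPM scale 24 lost it with their sign kept, Bmi1, Bmpr1a, Ctss and Pcbp1 lost it as they turned, and Atp2b1 passed as lower.

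Deviations of same-numbered NWD1Ca and NWD1 libraries from their group means correlated at -0.07, -0.01 and -0.02. Other pairs of NWD1Ca and NWD1 libraries lay between -0.03 and 0.05. With 3 libraries per group, these values cannot show whether the samples were paired. With the replicate block, 2690 genes were higher and 2314 lower, 0 and 0 passed in the other 2 comparisons, 51 spike-ins changed, and 177 of 177 named genes kept their direction and call.

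The limits are 3 libraries per group, sex unbalanced between the groups, spike-ins that changed with the groups, no batch label, and few Trpv6 counts in NWD1Ca, where depth sets the precision of the fold.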

Other observations

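Genes outside the groups described so far also differed between NWD1Ca and NWD1. Of 48 chromatin remodelers and histone modifiers tested, 11 were higher (22.9%, against 15.6% of all genes) and 3 lower (6.25%, against 14.9%). With only the groups compared in the fit, 10 were higher and 7 lower. The histone demethylase Kdm6b had 52.9, 52.2 and 40.2 CPM in NWD1Ca and 11.4, 6.20 and 6.53 CPM in NWD1. Chd1 (1.62 ± 0.22) and the co-repressor Ncor1 (1.55 ± 0.26) rose while the deacetylase Hdac3 fell (-1.40 ± 0.27). Of 21 intestinal identity factors, 5 were higher (23.8%, against 15.6% of all genes) and 3 lower (14.3%, against 14.9%). Gata6 had 101, 96.1 and 97.9 CPM in NWD1Ca and 35.8, 21.7 and 16.7 CPM in NWD1. On the TPM scale the medians of these lists were -0.80 and -0.40, against -0.78 over all genes.

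Tight junction genes gave 4 lower (18.2%, against 14.9% of all genes) and 0 higher of 22, Ocln and Marveld3 falling by 1.73 and 0.74 beside the claudins. Among 18 iron genes, 3 were higher and 2 lower (16.7% and 11.1%, against 15.6% and 14.9% of all genes). The hypoxia factor Epas1 rose (1.98 ± 0.44) and the ferritin receptor Ncoa4 fell (-1.49 ± 0.41). Interferon response genes gave 2 higher and 4 lower of 44 (4.55% and 9.09%, below the shares of all genes). Among them were Xaf1 at 2.11 ± 0.60 and Ifit2 at -1.71 ± 0.51. Of 13 reserve and regenerative stem cell genes, Areg, an EGF receptor ligand, and Bmi1 passed as higher (15.4%, against 15.6% of all genes). Without NWD1 3, 5 chromatin genes were higher. Each of these genes is on a list chosen with earlier results of these data known.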
